A study of Sus scrofa with 32 samples.

Results

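The proteasome subunit genes were followed in RNA from the longissimus dorsi, the loin muscle, of 32 pig fetuses collected on day 77 of gestation. Members were the loci whose listed symbol starts with PSMA, PSMB, PSMC or PSMD followed by a digit, and 35 of the 30413 loci in the table met this rule. They hold 34 symbols, since PSMD12 has 2 loci, of which the one with the higher mean was used. Of the symbols, 33 code for proteasome subunits or for factors that help to assemble the particle. The remaining symbol, PSMC3IP, met the rule by its letters only and codes for a factor of meiotic recombination. Another 5 subunit genes (PSMA1, PSMA2, PSMD4, PSMD8 and PSMD9) were listed by Ensembl number alone and are described beside the members. PSMB5, the chymotrypsin-like catalytic subunit, had no locus under its name. A locus listed as C14orf93 with an Ensembl number (Sscrofa11.1 chr7:76014515-76059798) spans the RefSeq position of PSMB5 (chr7:76014576-76021922), and its mean of 82.2 FPKM (58.9 to 124) cannot be assigned to either gene.

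The groups were 16 purebred Iberian fetuses and 16 crossbred Iberian x Large White fetuses, each with 8 females and 8 males. All were carried by purebred Iberian sows that had received mixed semen of Iberian and Large White boars and a restricted diet from early gestation, and genotype had been assigned from a leptin receptor variant. The first 4 digits of the fetus names gave 7 sow numbers, of which 5 had fetuses of both genotypes. No label says in words that these digits are the sow, and each value by sow or litter rests on that reading. Fetuses of one sow are not independent, and fetal weight category was not analysed because no label gives it.

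The proteasome is the barrel-shaped protease that degrades most ubiquitin-tagged proteins in the cell. Alpha subunits form its outer rings and beta subunits its inner rings, where PSMB5, PSMB6 and PSMB7 carry the active sites. A regulatory cap recognises, deubiquitinates, unfolds and feeds in the substrate, and is built from the PSMC ATPases and most PSMD proteins. Immune cells, and other cells under interferon, replace the 3 catalytic subunits by PSMB8, PSMB9 and PSMB10, which changes the peptides made for antigen presentation. In muscle the same pathway removes myofibrillar proteins tagged by ligases such as TRIM63.

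Values are FPKM, fragments scaled by transcript length and by library size, so that levels of different genes can be compared. Read depth relative to the geometric mean, estimated from the smallest FPKM steps, was 0.715 to 1.39 (Iberian median 0.914, crossbred median 1.06). The number of loci above 0.5 FPKM was 14921 to 16877 per library. The muscle marker ACTA1, skeletal alpha-actin, averaged 6799 FPKM with a lowest value of 3241. The T and NK cell list was split. CD3D, CD3E and CD2 were under 0.5 FPKM in every fetus, and CD3G, LCK and CD247 had means of 20.0 to 41.7 FPKM. CD3G shares its locus with UBE4A and other names, LCK with HDAC1, and CD247 with CREG1. Their levels cannot be assigned to T or NK cell genes. In whole tissue, fewer cells of a type and less RNA per cell cannot be told apart.

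The catalytic subunits PSMB6 and PSMB7 were more abundant than the immunoproteasome subunits PSMB8, PSMB9 and PSMB10, in means over 32 fetuses. PSMB7, the trypsin-like catalytic subunit, had the highest level, with 116 ± 25.8 FPKM (mean ± SD, n = 32) and a range of 75.4 to 173. PSMB4, a structural beta subunit, followed with 108 ± 34.3 FPKM, and PSMD2, a scaffold of the cap, with 104 ± 20.3 FPKM. PSMD2 shares its locus with EIF4G1 and FAM131A, so its level cannot be given to 1 gene. PSMB6, the caspase-like subunit, had 83.1 ± 23.2 FPKM. Of the 33 neighbouring pairs in the order of means, 28 were separated by less than the larger of their SDs. The 5 wider gaps lay below PSMB2 (74.2 FPKM), PSMD1 (23.8), PSMB10 (12.6), PSMD10 (4.34) and PSMC3IP (1.49).

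By role, the 6 ATPases ran from 30.4 FPKM (PSMC2) to 90.3 (PSMC5), and the 5 alpha subunits from 15.2 (PSMA3) to 51.4 (PSMA5). The 4 structural beta subunits ran from 28.3 (PSMB3) to 108 FPKM (PSMB4), and the 7 lid subunits from 12.7 (PSMD12) to 84.4 (PSMD13). The assembly factors PSMD5 and PSMD10 averaged 12.8 and 4.34 FPKM. Genes listed by Ensembl number were within the range of the members, from 14.1 FPKM for PSMD9 to 65.7 for PSMA2. PSMA8, a testis alpha subunit, was above 0 in 1 fetus (0.163 FPKM), as was PSMB11, the thymus beta subunit (0.0606 FPKM). Neither entered the tests, which left 32 members.

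**Figure D1:**
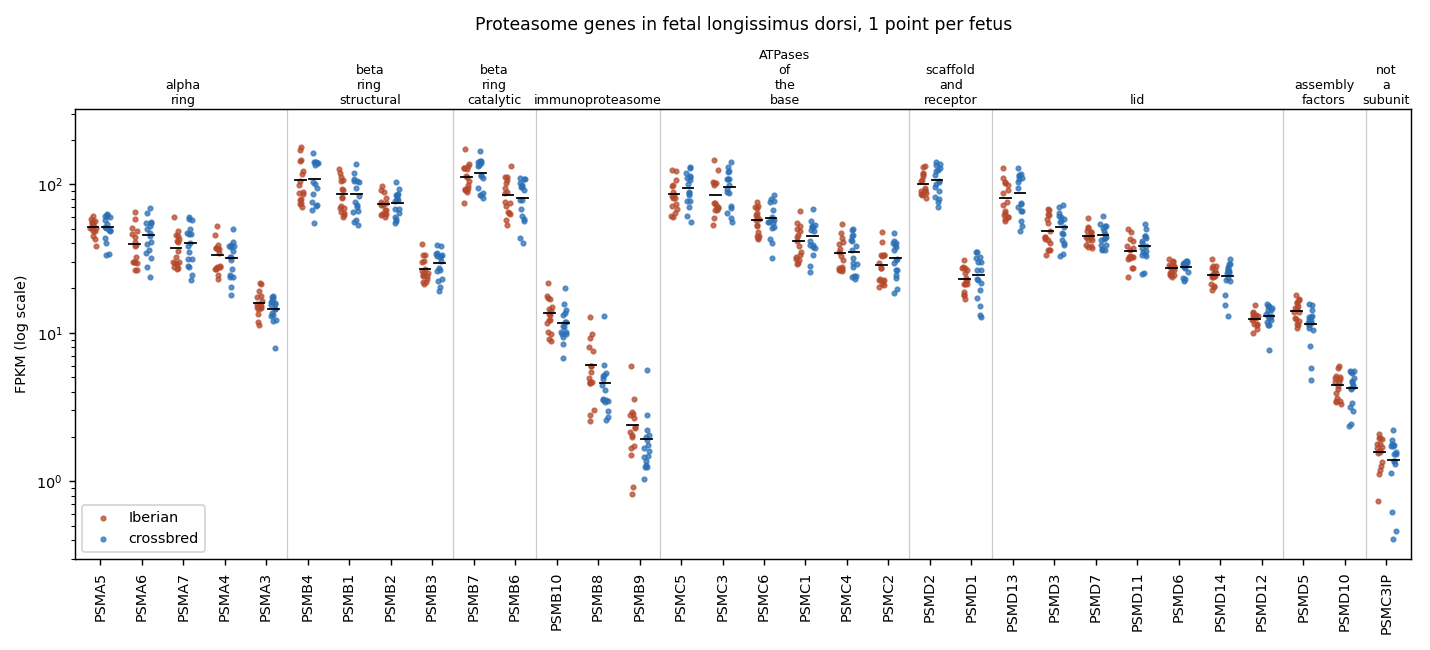
FPKM (log scale) of the 32 members with a mean over 0.5 FPKM, with 1 point per fetus in Iberian (red) and crossbred (blue) fetuses and a black line at each group mean. Genes are grouped by role, and the genotypes overlap for every gene, with the means of PSMB8, PSMB9 and PSMB10 below those of the constitutive beta subunits.

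Most constitutive members varied together from fetus to fetus. A mean deviation was computed from the 28 tested members among PSMA1-7, PSMB1-7, PSMC1-6 and PSMD1-14, each as log2(FPKM + 0.5) centred on its own mean. It ran from -0.38 in the crossbred female 1338F6L to 0.46 in the Iberian female 1401F2L, a 1.79-fold span. PSMB4 was at 72.9 FPKM in the first of these fetuses and at 178 in the second, and PSMC4, an ATPase, at 24.3 and 53.9 FPKM. Over 32 fetuses the median Pearson r of the 378 pairs was 0.71, against 0.00 for pairs of all 16750 loci tested, and 63.5% of these pairs had an r over 0.5, against 9.87%. These r values are descriptions without a test, since fetuses share sows and libraries share scaling.

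PSMC4 lay nearest to the mean of the other members (r = 0.96), followed by PSMB4, PSMB1 and PSMB7 (each 0.95). In all, 19 of the 28 members had an r over 0.8, or 67.9%, against 6.14% of the 16713 loci outside the members. These loci were not matched to the members in level. After median-of-ratios rescaling, which changes how libraries are scaled to each other, 10 of the 28 kept an r over 0.8, and the median pair r was 0.61. The values over all loci after this rescaling were not computed, so the excess over them is not known there. PSMD8 (0.92) and PSMD4 (0.89), which did not enter the mean, followed it as well. The mean deviation had an r of 0.76 with the first principal component of all loci, which held 14.5% of their variance, and an r of -0.34 with relative depth. Among the cell type lists it had an r of 0.68 with the mean of the T and NK cell genes and of 0.61 with that of the skeletal muscle genes. Taken apart, CD3G, LCK and CD247, each in a locus shared with another gene, had an r of 0.78 with it. The defining markers CD3D, CD3E and CD2, near 0 FPKM, had one of 0.14. The lists were not used in the mean, and their part in the shared variation was not tested.

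Several members did not follow this pattern. PSMC6, an ATPase whose locus is shared with STYX, ran against it (r = -0.58), with 76.3 FPKM in 1338F6L and 48.1 in 1401F2L. PSMA3, an alpha subunit, had an r of -0.15 and PSMD12, a lid subunit, one of -0.17. The sign was the same within each genotype for all 3. PSMD6, another lid subunit, was the steadiest tested member, with 22.3 to 31.2 FPKM and an SD of 0.13 on the log2 scale, against a median SD of 0.36 over the members and 0.33 over the 5918 loci with a mean over 10 FPKM. PSMB8 (r = 0.21) and PSMB9 (0.29) followed the constitutive genes weakly, and PSMB10 more closely (0.56).

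Outside the members, the 5 named loci nearest to the mean deviation over 32 fetuses were BYSL (r = 0.97), NDUFB8 (0.97), the locus of KRTCAP3 and NRBP1 (0.97), AAR2 (0.97) and CCT5 (0.97). BYSL acts in ribosome assembly, NDUFB8 is a subunit of mitochondrial complex I, AAR2 acts in splicing and CCT5 is a chaperonin subunit. Their likeness is a description.

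**Figure D2:**
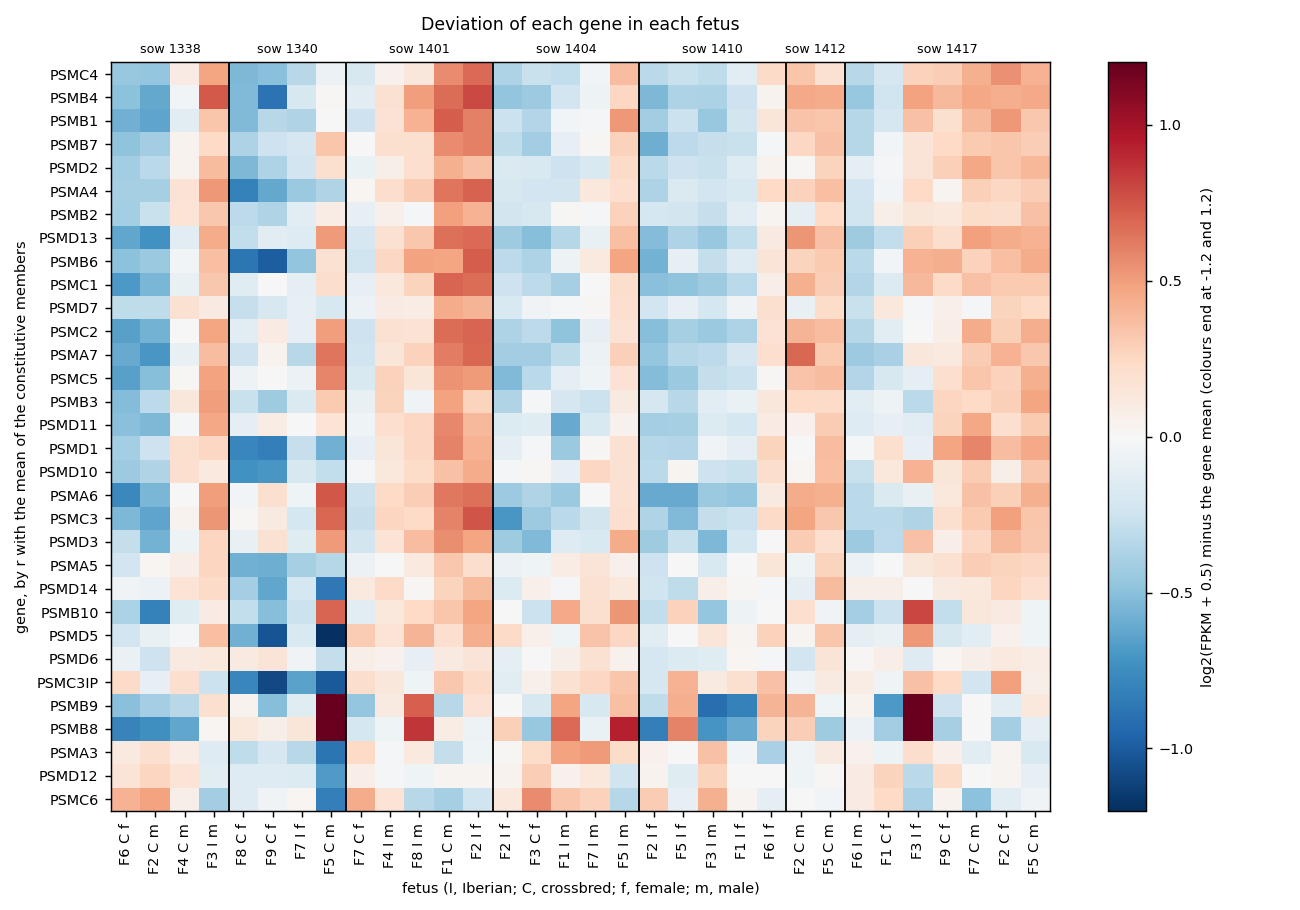
Deviation of each member (rows, ordered by r with the mean of the constitutive members) in each fetus (columns, ordered by sow and mean deviation), on the log2(FPKM + 0.5) scale. Rows near the top share 1 pattern across fetuses, PSMC6 at the bottom has the opposite one, and the fetus F5 of sow 1340 stands out in PSMB8, PSMB9 and PSMD5.

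Promoter letters were read for members that moved together or apart, from RefSeq's Sscrofa11.1, the build named for the files. All 39 members and Ensembl-numbered genes had a locus that overlapped the RefSeq gene. In windows from 250 bases before to 50 bases after the annotated start, both strands were searched for TGACNNNGC, the core of the element bound by NFE2L1 and MAF proteins, and for CCAAT, the element bound by NF-Y. TGACNNNGC was in 4 of 34 members (11.8%) and in 12.2% of 20664 promoters of protein-coding genes. CCAAT was in 13 members (38.2%) and in 35.7% of all promoters. Both shares were near the background. PSMD14, the deubiquitinase of the lid, was the member that held both motifs. A pair of GAAA runs separated by any 2 bases, a core of interferon response elements, was searched after the letters of the PSMB10 window had been seen. It was in PSMB9, PSMB10 and PSMC4, or 3 of 34 members (8.82%), and in 3.72% of all promoters, with 2 matches that overlap each other in PSMB9. PSMB10 is in this count by the choice of the motif, so the shares cannot be compared. PSMB8 had no match.

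The 150 bases before the start are shown, 5′ to 3′ on the gene's strand, with matches to these motifs in capitals, for the member nearest to the mean (PSMC4, chr6:48406087-48406236, plus strand), an ATPase with a TGACNNNGC match (PSMC5, chr12:15106327-15106476, minus), the member with both motifs (PSMD14, chr15:68107229-68107378, plus), the member that ran against the rest (PSMC6, chr1:182328920-182329069, plus, with no match) and PSMB10 (chr6:28547610-28547759, minus). In PSMD14 the capitals CCAATTGG are a CCAAT match on each strand that overlap.
PSMC4: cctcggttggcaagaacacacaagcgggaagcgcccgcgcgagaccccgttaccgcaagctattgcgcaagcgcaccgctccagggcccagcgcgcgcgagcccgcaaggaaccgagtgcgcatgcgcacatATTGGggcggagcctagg
PSMC5: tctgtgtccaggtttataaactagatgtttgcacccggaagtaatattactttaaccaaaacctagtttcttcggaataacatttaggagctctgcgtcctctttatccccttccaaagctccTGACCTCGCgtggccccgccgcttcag
PSMD14: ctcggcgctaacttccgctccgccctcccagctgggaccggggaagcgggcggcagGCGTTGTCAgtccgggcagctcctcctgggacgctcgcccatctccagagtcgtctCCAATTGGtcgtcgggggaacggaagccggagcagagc
PSMC6: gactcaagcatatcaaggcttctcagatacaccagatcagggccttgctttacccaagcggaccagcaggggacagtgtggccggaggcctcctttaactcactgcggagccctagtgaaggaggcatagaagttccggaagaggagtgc
PSMB10: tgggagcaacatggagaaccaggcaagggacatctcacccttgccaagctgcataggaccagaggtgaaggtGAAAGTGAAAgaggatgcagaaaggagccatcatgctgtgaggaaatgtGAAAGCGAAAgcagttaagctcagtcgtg

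No member passed the threshold for genotype, an adjusted p of at most 0.05 with a fold of at least 1.3 in limma. The count was 0 of 32 members, beside 227 of 16750 loci (1.36%). At an unadjusted p under 0.05 there was 1 member, PSMD5, beside 17.9% of all loci. Here and in the comparisons that follow, a higher or lower mean refers to the log2 scale, which for genes with near-equal levels can differ in sign from the FPKM means. Of the 32 members, 19 had a higher and 13 a lower mean in crossbred fetuses, beside 56.2% of all loci higher. The median log2 fold change was 0.02, beside 0.03 over all loci. Members vary together, so such counts of direction are not counts of independent genes. With sow as a block 8 of 32 members were higher, beside 53.0% of all loci, and their median was -0.05. The direction thus depended on how litter was treated. Without sow 1340 25 of 32 were higher, beside 56.2%, with a median of 0.07. The mean deviation was -0.01 in Iberian and 0.01 in crossbred fetuses, and crossbred littermates were lower in 4 of the 5 sows with both genotypes. The differences were -0.53 (sow 1338), -0.03 (1340), -0.08 (1401), -0.13 (1404) and 0.24 (1417). In sows 1338, 1340 and 1404 one of the genotypes had 1 fetus only.

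PSMD5, a chaperone that holds the ATPase base during assembly, had the smallest genotype p. It ran from 10.8 to 18.0 FPKM in Iberian fetuses (median 14.3) and from 4.84 to 15.7 in crossbred fetuses (median 11.8). The ranges overlapped, and 13 of 16 crossbred fetuses lay below the Iberian median. The log2 fold change was -0.34 ± 0.12 (SE, limma, adjusted p = 0.139). Without the 4 fetuses of sow 1340, of which 3 are crossbred, it was -0.18 ± 0.07 (adjusted p = 0.214).

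The groups by role gave no call either. All 6 ATPases had a higher mean in crossbred fetuses, with log2 fold changes of 0.02 to 0.17, and 6 of the 7 lid subunits did, with a group median of 0.05. The alpha subunits were mixed, with 2 higher and 3 lower, from -0.13 for PSMA3 to 0.18 for PSMA6. PSMA3 had 15.9 ± 2.90 FPKM in Iberian and 14.5 ± 2.54 in crossbred fetuses (SD, n = 16 each, limma adjusted p = 0.489). PSMB6 and PSMB7 had log2 fold changes of -0.09 ± 0.15 and 0.09 ± 0.11 (SE). Among the genes listed by Ensembl number, PSMA1 had the smallest p, with a log2 fold change of -0.18 ± 0.09 (limma adjusted p = 0.30).

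The rest of the pathway was read from lists that processing names, and none of their genes was called for genotype. Of 8 tested activators and associated parts, 7 had a higher mean in crossbred fetuses (median log2 fold change 0.11), with the smallest p for USP14 (0.16) and PSME4 (0.13), a deubiquitinase and an activator. Of 3 tested assembly chaperones, the smallest p belonged to PSMG3 (0.13) and PAAF1 (0.14). All 7 tested genes of subunit transcription had a higher mean in crossbred fetuses (median 0.21), including MAFG (0.22) and MAFK (0.31), partners of NFE2L1. NFE2L1 had a median of 34.3 FPKM in Iberian and 34.8 in crossbred fetuses, and the 4 fetuses of sow 1340, at 52.8 to 86.9 FPKM, lay above all others (25.9 to 41.1). Without this sow the median of the list was 0.06, with 0.08 for MAFG and 0.10 for MAFK. Among 5 ubiquitin genes UBA6, an activating enzyme, had 0.22 and RPS27A, a ubiquitin fusion, -0.12. Of 10 muscle ubiquitin ligases 8 had a higher mean in crossbred fetuses, with 0.36 for TRIM55 and 0.80 for TRIM63 (limma adjusted p = 0.209). The study itself, by Cuffdiff on these fetuses and by RT-qPCR, reported TRIM63 as higher in crossbred fetuses. TRIM63 was at 19.1 FPKM in the Iberian and at 50.9, 67.5 and 98.3 in the 3 crossbred fetuses of sow 1340, and at 2.16 to 10.3 in the 28 others. Without this sow its log2 fold change was 0.32 ± 0.16 (SE, limma, adjusted p = 0.303), that of TRIM55 was 0.39, and the median of the list fell from 0.19 to 0.07.

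**Figure D3:**
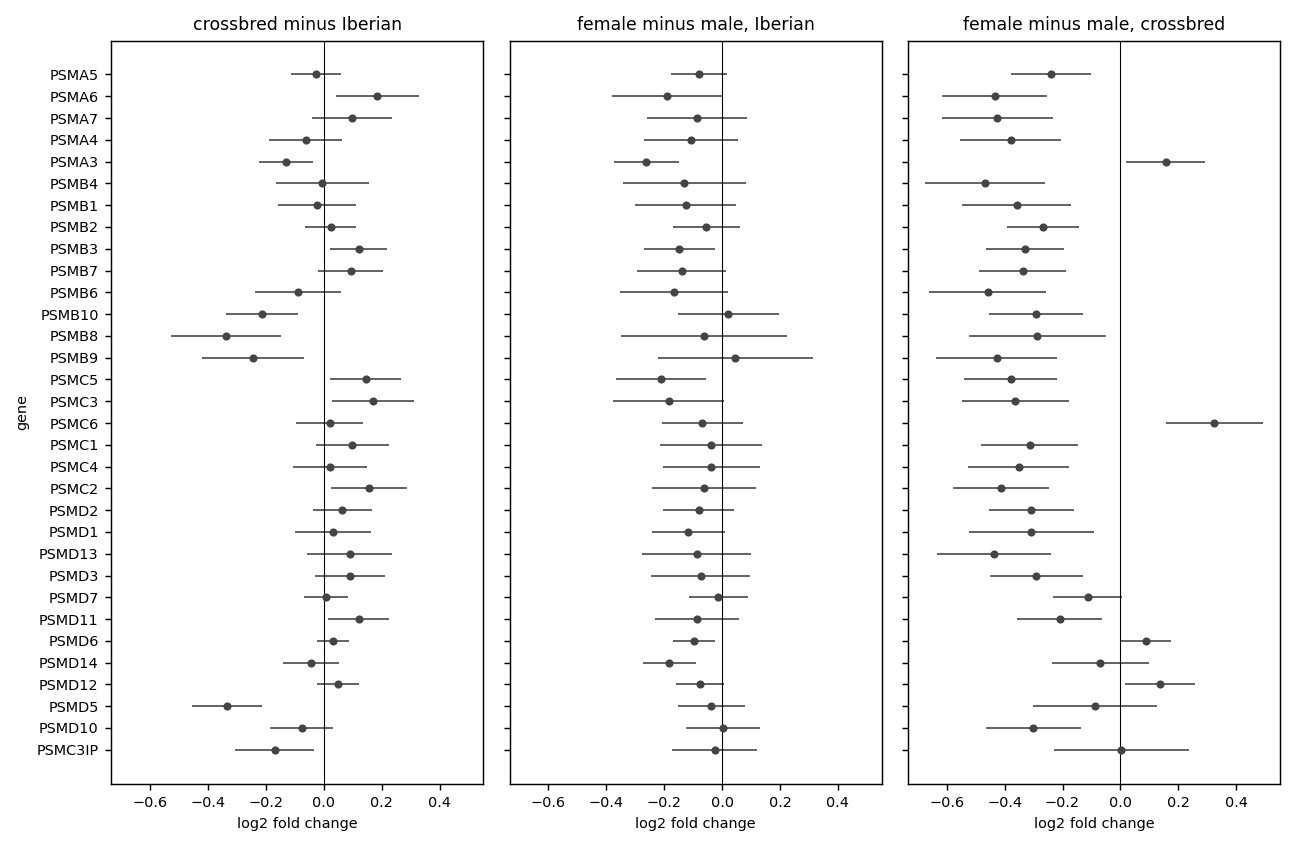
Log2 fold changes with their standard errors (limma, on log2(FPKM + 0.5)) for the 32 tested members in 3 comparisons. Values for genotype lie on either side of 0, and 27 of 32 values for sex in crossbred fetuses lie below 0, with PSMC6 and PSMA3 above it.

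The immunoproteasome subunits all had lower means in crossbred fetuses, and none passed the test. PSMB8 ran from 2.53 to 12.8 FPKM in Iberian (median 5.18) and from 2.58 to 12.9 in crossbred fetuses (median 3.85), and 12 of 16 crossbred fetuses had less than the Iberian median. The fitted log2 difference, crossbred minus Iberian, was -0.34 ± 0.19 (SE, limma, adjusted p = 0.358). PSMB9 ran from 0.818 to 5.99 FPKM (median 2.22) and from 1.04 to 5.63 (median 1.63), with a log2 fold change of -0.25 ± 0.18 (limma adjusted p = 0.487). PSMB10, whose locus is shared with CTRL, ran from 8.74 to 21.7 (median 13.2) and from 6.73 to 20.1 FPKM (median 11.0), with -0.21 ± 0.12 (limma adjusted p = 0.375). Over the alternatives tried, the log2 fold change was between -0.54 and -0.21 for PSMB8, -0.52 and -0.13 for PSMB9, and -0.34 and -0.15 for PSMB10, never called. PSMB8 and PSMB9 carry the same locus field (chr7:25044551-25096145) although RefSeq places them apart, so reads of one may be counted for the other.

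Set against the constitutive subunit it replaces, PSMB9 made up 2.72% ± 1.03 of the summed FPKM of PSMB9 and PSMB6 in Iberian and 2.41% ± 1.21 in crossbred fetuses (SD, n = 16 each). PSMB10 made up 10.9% ± 1.93 of the sum with PSMB7 in Iberian and 8.90% ± 1.41 in crossbred fetuses, with ranges of 8.57% to 14.7% and 6.86% to 12.4%. These shares were not tested, and the share for PSMB8 could not be formed without PSMB5.

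The highest PSMB8 and PSMB9 levels were in 2 fetuses. The crossbred male 1340F5L had 12.9 FPKM of PSMB8, 5.63 of PSMB9 and 20.1 of PSMB10, and the Iberian female 1417F3L had 12.8, 5.99 and 21.7. These 2 fetuses also ranked 2 and 1 in the mean of the macrophage markers, and 1 and 3 in the mean of the interferon response genes. Over 32 fetuses, the mean log2 level of the 9 macrophage markers had an r of 0.86 with PSMB8, 0.70 with PSMB9 and 0.60 with PSMB10, and that of the 4 interferon response loci 0.82, 0.78 and 0.67. The endothelial list had an r of 0.74 with PSMB8, 0.60 with PSMB9 and 0.50 with PSMB10, the adipocyte list 0.67, 0.44 and 0.48, and the erythroid list 0.66, 0.58 and 0.47. In adipocyte genes 1417F3L ranked 1 and 1340F5L 20, and 1340F5L had the highest ALAS2, an erythroid enzyme, at 83.8 FPKM. Their part in the immunoproteasome values was not tested.

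Those markers also differed in mean between genotypes, without a call. Of 8 tested macrophage markers 7 had a lower mean in crossbred fetuses, with a median log2 fold change of -0.15 and the smallest p for AIF1 (-0.51) and CSF1R (-0.31). The summed level of the list ran from 152 to 518 FPKM in Iberian (median 250.2) and from 156 to 321 in crossbred fetuses (median 238), and MARCO was under 0.5 FPKM in every fetus. CD68 shares its locus with EIF4A1 and other genes. Its locus had a median of 159 FPKM in the fetuses outside sow 1340, so the sum does not measure macrophage genes alone. All 4 interferon response loci, 1 of them shared by MX1 and MX2, had lower means, with -0.76 for IFI6 and -0.10 for IFIT1. All 6 adipocyte markers had lower means, with a median of -0.97. The study itself, by Cuffdiff, reported PLIN1 and FABP4 among genes higher in Iberian fetuses. Without the Iberian fetuses 1404F2L, 1410F5L and 1417F3L, the 3 highest in adipocyte markers, the log2 fold change of PSMB8 was -0.21 ± 0.19 and that of PSMB9 -0.13 ± 0.17. Without sow 1340 these were -0.50 ± 0.18 and -0.36 ± 0.17 (SE, limma, adjusted p = 0.163 and 0.267). Without that sow 8 of 8 macrophage markers were lower (median -0.34). The median was then -0.35 for the interferon response loci and -0.19 for the antigen processing genes, against -0.18 and 0.00 with it. Among antigen processing genes NLRC5, an activator of MHC class I genes, had a log2 fold change of -0.22 (limma adjusted p = 0.184).

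**Figure D4:**
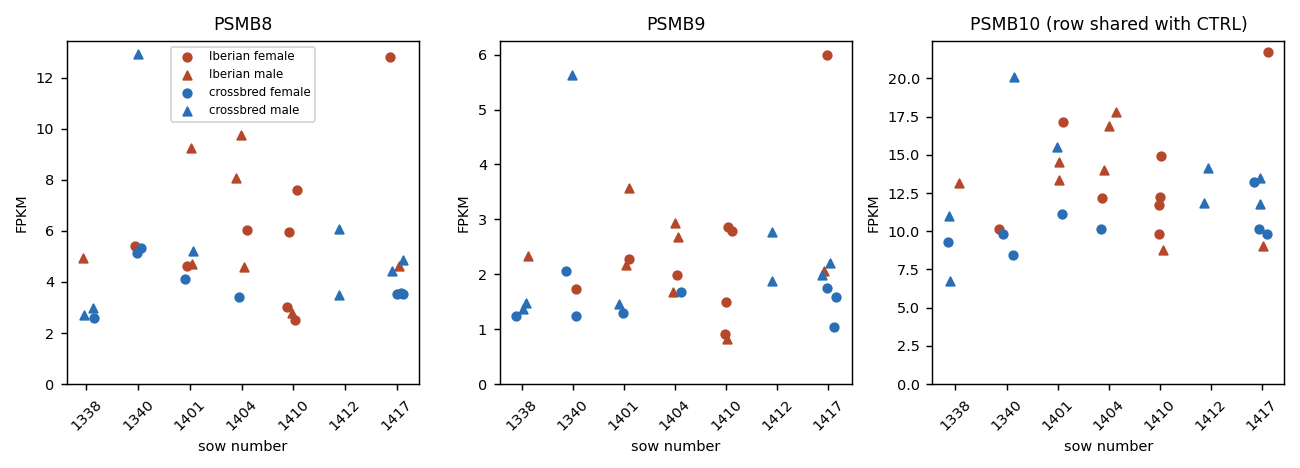
FPKM of PSMB8, PSMB9 and PSMB10 in each fetus by sow number, coloured by genotype (red, Iberian; blue, crossbred) with circles for females and triangles for males. A crossbred male of sow 1340 and an Iberian female of sow 1417 are highest in all 3 genes.

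Relations among these genes were computed over 32 fetuses for 10 of 12 planned pairs, since PSMB5 had no locus by name. P-values are two-sided, from permutation tests with 100000 resamples that treat fetuses as independent, and are adjusted over the 10 pairs. PSMB8 and PSMB9 rose together, with Pearson's r of 0.88 and Spearman's rho of 0.79 (permutation p = 1e-05 for each, the smallest these resamples can give, adjusted p = 3.33e-05 and 5e-05). Without the 2 fetuses farthest from the PSMB8 median, 1340F5L and 1417F3L, r was 0.80, and it was 0.90 within Iberian, 0.82 within crossbred and 0.90 after centring by sow. PSMB8 and PSMB9 carry the same locus field, so reads of one may be counted for the other. None of these r values can address that. PSMB8 and PSMB10 had r of 0.77 and rho of 0.70 (permutation p = 1e-05 and 2e-05, adjusted p = 3.33e-05 and 5e-05), with an r of 0.67 without the same 2 fetuses. PSMB9 and PSMB10 had r of 0.76 and rho of 0.72 (permutation p = 1e-05 and 2e-05, adjusted p = 3.33e-05 and 5e-05), with an r of 0.64 without them. Within genotypes these 2 relations had r values of 0.72 to 0.77, and after centring by sow of 0.80 and 0.79.

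PSMB9 and PSMB10 also rose with the constitutive genes they replace. PSMB10 and PSMB7 had r of 0.64 and rho of 0.65 (permutation p = 1e-04 and 0.00015, adjusted p = 0.00025 and 0.0003), with r of 0.64 without the 2 farthest fetuses, 0.68 within Iberian, 0.77 within crossbred and 0.70 after centring by sow. PSMB9 and PSMB6 had r of 0.45 and rho of 0.47 (permutation p = 0.0103 and 0.00651, adjusted p = 0.0172 and 0.0108), with r of 0.44 without the 2 fetuses, 0.56 within Iberian, 0.33 within crossbred and 0.58 after centring by sow.

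IRF1, a transcription factor of the interferon response, rose with PSMB8, with r of 0.63 and rho of 0.71 (permutation p = 0.00026 and 1e-05, adjusted p = 0.00052 and 5e-05). Without 1340F5L and 1340F8L r was 0.66, and it was 0.87 within Iberian, 0.63 within crossbred and 0.71 after centring by sow. With PSMB9 it had r of 0.43 and rho of 0.46 (permutation p = 0.0143 and 0.00899, adjusted p = 0.0205 and 0.0121), with r of 0.35 without those 2 fetuses, 0.63 within Iberian, 0.41 within crossbred and 0.59 after centring by sow. Without the 3 Iberian fetuses highest in adipocyte markers this relation had r of 0.39 (adjusted p = 0.0543). With PSMB10 it had r of 0.23 and rho of 0.27 (permutation p = 0.212 and 0.128, adjusted p = 0.263 and 0.142), with r of 0.24 without the 2 fetuses, 0.54 within Iberian, 0.12 within crossbred and 0.52 after centring by sow. Without the 4 fetuses of sow 1340 this r was 0.60 (adjusted p = 0.000914).

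NFE2L1, the factor known to induce proteasome genes when the particle is inhibited, had no detectable relation with PSMD11, a lid subunit (r = 0.05, rho = 0.01, permutation p = 0.806 and 0.958, adjusted p = 0.806 and 0.958). Its r was -0.05 without the 2 farthest fetuses, -0.12 within Iberian, 0.04 within crossbred and 0.15 after centring by sow. TRIM63 and PSMD11 had r of 0.22 and rho of 0.46 (permutation p = 0.237 and 0.00969, adjusted p = 0.263 and 0.0121), with r of 0.34 without 1340F8L and 1340F9L, 0.34 within Iberian, 0.07 within crossbred and 0.38 after centring by sow. Without sow 1340 its r was 0.44 (adjusted p = 0.0202).

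No member was called between females and males in either genotype. In Iberian fetuses 0 of 32 members were called, beside 0.116% of 16414 loci, and 1 member had an unadjusted p under 0.05, beside 2.25%. That member was PSMA3, with 11.3 to 17.4 FPKM in females and 13.4 to 21.5 in males (log2 fold change -0.26 ± 0.11, SE, limma, adjusted p = 1.00). In these fetuses 29 of 32 members had a lower mean in females, with a median of -0.08. Of all loci 45.6% had a higher mean, with a median of -0.02. But with sow as a block 24 of 32 members were higher, beside 50.3% of all loci.

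In crossbred fetuses 0 of 32 members were called, beside 0.125% of 16843 loci. Here 11 members had an unadjusted p under 0.05 (14.9% of all loci). In females 27 of 32 members had a lower mean, while 45.4% of all loci had a higher one. The median log2 fold change was -0.31, beside -0.04 over all loci. The ATPase PSMC2 had the smallest p. It ran from 18.5 to 36.0 FPKM in females (median 26.6) and from 19.7 to 47.0 in males (median 39.5), with a log2 fold change of -0.41 ± 0.17 (SE, limma, adjusted p = 0.331). PSMB4 ran from 55.2 to 139 FPKM in females (median 81.2) and from 66.8 to 164 in males (median 140.3), with -0.47 ± 0.21 (limma adjusted p = 0.331). PSMB6 had 69.8 ± 25.2 FPKM in females and 92.4 ± 17.2 in males (SD, n = 8 each). The ranges of females and males overlapped for these 3 genes.

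The members with a higher mean in crossbred females were PSMC6 (log2 fold change 0.32), PSMA3 (0.16), PSMD12 (0.14), PSMD6 (0.09) and PSMC3IP (0.00). PSMC6, PSMA3 and PSMD12 are the members with a negative r with the mean of the others. The mean deviation was -0.11 ± 0.24 in crossbred females and 0.14 ± 0.24 in crossbred males (SD, n = 8 each). Within the 4 sows that had crossbred fetuses of both sexes, females were lower in 4 of 4, by -0.23 (sow 1338), -0.29 (1340), -0.50 (1401) and -0.14 (1417), from 1 to 3 fetuses of each sex. In Iberian littermates the differences were 0.29 (1401), -0.26 (1404), 0.03 (1410) and 0.31 (1417).

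The treatment of litter decided the calls in crossbred fetuses. With sow as a random effect 4 of 32 members were called, beside 6.04% of all loci. They were PSMC2 (log2 fold change -0.48 ± 0.12, adjusted p = 0.0436), PSMA6 (-0.51 ± 0.13, 0.0436), PSMC5 (-0.44 ± 0.12, 0.0437) and PSMB3 (-0.38 ± 0.10, 0.0439), by limma. PSMD2 also had an adjusted p below the threshold there (0.0477) but a fold under 1.3. With sow as a block 0 were called and 27 had an unadjusted p under 0.05, beside 32.2% of loci. Without the 4 fetuses of sow 1340, 2 members had one, beside 9.44%. All 7 skeletal muscle markers also had a lower mean in crossbred females (median log2 fold change -0.40), as they did in Iberian females (-0.36), and the mean of this list had an r of 0.61 with the mean deviation over 32 fetuses. Their part in the sex values was not tested. The sex effect was also compared across genotypes, and its difference was called for 0 of 32 members and for 0% of 17345 loci in limma, and 1 member, PSMA3, had an unadjusted p under 0.05, beside 4.9%. Its difference was 0.42 ± 0.18 (SE, limma, adjusted p = 0.829).

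**Figure D5:**
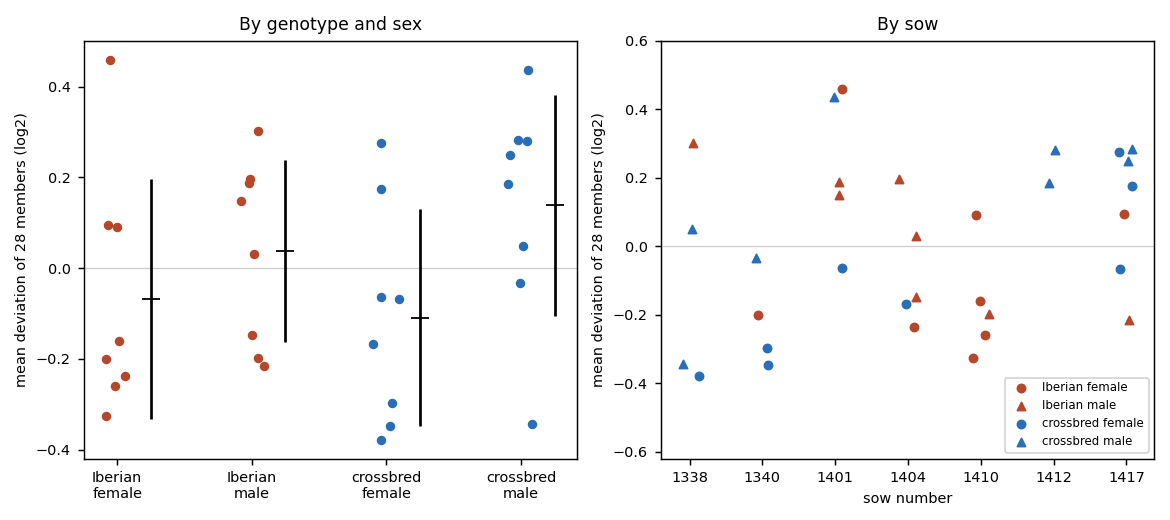
Mean deviation of 28 constitutive members (log2 scale) in each fetus, by genotype and sex with mean and SD beside the points (left) and by sow number (right, circles for females and triangles for males). Crossbred females lie between -0.38 and 0.28 and crossbred males between -0.34 and 0.44, and sow 1340 has no fetus above 0.

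Litter was the comparison with calls among the members. With genotype in the model, 11 of 32 members differed between sows (limma F-test, adjusted p of at most 0.05), beside 23.8% of 16750 loci. They were PSMC3IP, the assembly factors PSMD5 and PSMD10, the alpha subunits PSMA3, PSMA4 and PSMA5, the beta subunits PSMB4 and PSMB6, the ATPase PSMC1, the scaffold PSMD1 and the lid deubiquitinase PSMD14. No immunoproteasome gene was among them. Sex was not in this model, and the sexes are not balanced over sows, with males only in sow 1412. Litter and sex therefore cannot be fully told apart in these calls. Of the genes listed by Ensembl number, PSMA1 (adjusted p = 0.00076) and PSMA2 (0.0246) differed in the same F-test.

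Sow 1340 had the lowest mean in 10 of the 11. PSMD5 was at 4.84 FPKM in the crossbred male 1340F5L, 5.80 and 8.12 in the crossbred females 1340F9L and 1340F8L and 10.8 in the Iberian female 1340F7L, and at 10.5 to 18.0 in the 28 other fetuses (median 12.9, limma adjusted p = 0.00029). PSMD14 was at 13.0, 15.5, 18.0 and 20.7 FPKM in the same order, and at 19.3 to 31.6 in the others (adjusted p = 0.00117). PSMC3IP was at 0.409 to 0.734 FPKM in sow 1340 and at 1.11 to 2.22 in the others (adjusted p = 0.00013), and PSMA5, in a locus shared with SORT1, at 33.6 to 40.0 and 42.7 to 63.5 (adjusted p = 0.00197). For PSMC3IP and PSMA5 the fetuses of this sow lay below all others. The share of all loci separated in this way was not counted, so this is not read as particular to the members. The exception was PSMC1, with its lowest mean in sow 1410 (33.5 FPKM) and its highest in sow 1401 (53.9).

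In sow 1340 23 of 32 members had a lower mean, beside 49.2% of all loci. The median log2 difference to the other fetuses was -0.21, against 0.01 over all loci. The same fetuses stood apart in genes outside the members. FBXO32, a muscle ubiquitin ligase, was at 27.6 to 145 FPKM in sow 1340 and at 1.56 to 7.92 in the 28 others. MAFF, a partner of NFE2L1, was at 11.4 to 68.9 and at 3.13 to 9.73 FPKM, and CD163, a macrophage receptor, at 16.5 to 21.6 and at 2.65 to 10.1. The 4 fetuses lay above all others in these genes, as they did in TRIM63 and NFE2L1, and the part of this in the members' values was not tested. Over all loci such separation was not counted, so it is not read as particular to these genes. In no other marker of the macrophage list did all 4 fetuses lie above all others. They did exceed the median of the others in C1QA, C1QB, C1QC, CD14 and CSF1R. C1QC was at 18.9 to 29.8 FPKM, and at 3.88 to 25.8 in the others (median 8.93). CD68, in a shared locus, was at 93.4 to 159 and at 109 to 265 FPKM. AIF1 was at 6.55 to 10.0 FPKM in sow 1340 and at 3.65 to 29.8 in the others. CSF1R was at 13.7 to 20.2 and at 5.76 to 28.0 FPKM. The male 1340F5L departed in both directions. It had the lowest PSMC6 (32.0 FPKM), PSMA3 (7.94) and PSMD12 (7.70) of all fetuses, and the highest PSMC5 (132) and PSMA6 (68.9). Without the 4 fetuses of sow 1340, 0 of 32 members were called, beside 0.0962% of 16638 loci, and 11 had an unadjusted p under 0.05, beside 18.8%.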

How the data were processed

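The authors sequenced unstranded paired-end libraries and deposited FPKM per locus. The submitters' notes name Trim Galore, TopHat2 2.1.0, Bowtie2 2.2.7.0, Cufflinks 2.2.1, Cuffdiff and the build Sscrofa11.1. Read counts were not analysed here, so counting intervals cannot be given, and reads of overlapping or merged loci cannot be told apart. 6 of the member loci carry further names (PSMA4, PSMA5, PSMA6, PSMB10, PSMC6 and PSMD2). Loci of some list genes do so too, among them PSME1, PSME3, TAPBP, TNNT3, CD68, CD3G, CD247 and LCK. For PSMD12 the higher of 2 loci was used.

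The scale was log2(FPKM + 0.5), which understates fold changes of low genes. Loci were kept where any compared group averaged more than 0.5 FPKM, and limma 3.58.1 with a trended prior (R 4.3.3) was fitted to all of them, with Benjamini-Hochberg adjustment. Calls required an adjusted p no larger than 0.05 together with a 1.3-fold difference, except that litter and the difference of the sex effects had no fold minimum. Simulated data were used to test the scripts. Correlations used Python 3.11.15, numpy 2.4.6 and scipy 1.17.1.

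Members, lists, motifs and fetuses to leave out were chosen with earlier results of these data known. Lists were: activators and other parts (8 of 9 genes with a locus), assembly chaperones (3 of 6), subunit transcription (7 of 8), ubiquitin (6 of 6), muscle ligases (10 of 10), antigen processing (8 of 8), skeletal muscle (7 of 7), macrophage (9 of 9), T and NK cell (6 of 6), adipocyte (6 of 6), endothelial (6 of 6), erythroid (4 of 5) and interferon response (5 of 7, on 4 loci). Endothelial genes had a median genotype log2 fold change of -0.11 (EGFL7 -0.33, KDR -0.14), erythroid genes 0.23 (AHSP 0.54, ALAS2 0.30), skeletal muscle genes 0.30 (MYH3 0.61, MYH8 0.47), T and NK cell genes 0.03 (CD247 -0.06, CD3G 0.04), and the adipocyte genes PLIN1 and FABP4 had -1.49 and -0.77. None was called.

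Named genes were the catalytic and immunoproteasome subunits, the 3 members highest and lowest in mean, those with the 5 smallest genotype and 3 smallest litter p, the 3 largest SDs, each called member, 2 genes per list (1 of them is not reported here) and the 5 loci nearest to the mean deviation. The members that stand apart from the mean, PSMC2, PSMB4, PSMC4, ALAS2, FBXO32, MAFF, CD163 and NFE2L1 were named after their values were seen. Other settings tried were median-of-ratios rescaling, pseudocounts of 0.1 and 1 FPKM, a filter on means at 1 FPKM or none, sow as a block or random effect, sex as a covariate, no fold minimum, sows with both genotypes, summed loci, and leaving out sow 1340 or 3 Iberian fetuses. For the pairwise r and the lists they were added after seeing the data.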

Additional observations from a re-analysis of the deposited data

Results flagged for a closer look

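The 32 tested members were checked in the 4 groups of 8 fetuses by genotype and sex for a value far from the rest (Dixon's test at the 95% level). Of 128 groups 9 stood out, and chance flags about 1 in 20. In the crossbred male 1340F5L, PSMB8 was at 12.9 FPKM with the next fetus at 6.07, PSMB9 at 5.63 with the next at 2.77, PSMD5 lowest at 4.84 with the next at 11.2, and PSMD12 lowest at 7.70 with the next at 11.8. In the Iberian female 1401F2L, PSMA6 was at 64.8 FPKM with the next at 44.01, PSMC2 at 47.9 with the next at 33.3, PSMC5 at 126 with the next at 88.6, and PSMD14 at 31.5 with the next at 24.4. In the Iberian female 1417F3L, PSMB9 was at 5.99 FPKM with the next at 2.85. Library 1401F2L is also the highest in the mean deviation of the constitutive members (0.46).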

How the results depend on the processing

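The count of members called stayed at 0 under all 13 alternatives for genotype, 11 for sex in Iberian fetuses and 9 for the difference of the sex effects. For sex in crossbred fetuses it was 4 with sow as a random effect and 0 under the 9 others. For litter it was 0 without sow 1340, which also leaves fewer fetuses, and 8 to 12 otherwise. The genotype value of PSMB7 turned to -0.045 with sow as a block and -0.056 in sows with both genotypes, uncalled. The relation of NFE2L1 and PSMD11 turned to -0.093 after median-of-ratios rescaling and -0.0081 without sow 1340, uncalled. Without sow 1340, IRF1 and PSMB10 (0.60) and TRIM63 and PSMD11 (0.44) passed the threshold, and without the 3 Iberian fetuses IRF1 and PSMB9 (0.39) did not. For these changes the cause was not tested. Replicate numbers were given in accession order and pair no fetuses, so litter was the one match used, as the sow block. Relative depth limits low loci most, such as PSMB9 and PSMC3IP.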
